A study of Mus musculus with 6 samples.

Results

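The type I interferon-stimulated antiviral genes are 47 named mouse genes: the 2 chains of the type I interferon receptor, the transcription factor gene Stat2, and genes that cells transcribe more when that receptor is engaged. Each gene was read from a probe set that the array annotation gives to it alone, and where several exist the one with the highest mean over all 6 arrays represents it. Of the 47 genes 44 had such a probe set, among 19938 genes tested in all, while Isg15, Ifi44 and Ifi47 had none and are not analysed here. The arrays held 2 macrophage subsets of regenerating muscle, Ly6C- F4/80high and Ly6C+ F4/80low cells, both taken from each of the same 3 mice, so that each subset has 3 arrays and each mouse gives a pair. All mice were of the strain B6.129P2-Lyzstm1(cre)Ifo/J, in which the lysozyme locus carries Cre, and the labels name no floxed allele and no age. The tibialis anterior muscle of every mouse had been injected with cardiotoxin, a snake toxin that destroys muscle fibres, 2 days before the cells were taken. CD45-positive cells were enriched on magnetic beads and sorted by antibodies to the surface antigens that name the subsets, and 150 ng of RNA was labelled for each array. The comparison asks how the 2 sorted subsets differ in these genes. Levels are log2 values as the authors normalised them, and every difference is the Ly6C- F4/80high mean minus the Ly6C+ F4/80low mean in log2 units, where 1 is a 2-fold difference.

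Type I interferons are secreted by cells that detect viral or misplaced nucleic acids. They bind a receptor of the chains IFNAR1 and IFNAR2, whose kinases JAK1 and TYK2 activate STAT2, which with IRF9 is part of the complex ISGF3. ISGF3 binds the interferon-stimulated response element (ISRE) in the promoters of genes whose products degrade viral RNA, block its translation, tether budding virus or sense further nucleic acid. In macrophages and monocytes a part of this programme is transcribed without infection, and Ly6C itself is an antigen whose genes respond to interferon.

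RNA of most of these antiviral genes was less abundant in Ly6C- F4/80high cells. Of the 44 measured genes 34 were called lower, 3 higher and 7 not called by limma at an adjusted p under 0.05, while of all genes tested 14.3% were called lower and 19.5% higher. Among the 12744 genes with a subset mean above the background level of 5.44, which is the 95th percentile of olfactory and vomeronasal receptor genes, 16.2% were lower and 29.0% higher. The median difference of the 44 genes was -0.64, against -0.06 over all genes tested. All 34 genes called lower had every Ly6C- F4/80high array below every Ly6C+ F4/80low array, and the 3 called higher had every one above, while the arrays of the 7 others overlapped. Of all genes 23.6% were separated downwards in this way and 24.4% upwards. A fitted fall of at least 2-fold was called for the 6 genes Isg20, Oas2, Mx1, Zbp1, Oas3 and Mx2 and a rise of that size for Ifi27 alone, while such calls made up 1.02% and 1.91% of all genes. Mx2 passed that size only as fitted, since it was 1.90-fold lower with the Ly6C- F4/80high arrays under the background level set to it. Arrays of sorted cells cannot tell apart fewer cells that transcribe a gene and less RNA of it per cell. The members were chosen with earlier results of these data known, so their count is a description and not an independent test of direction. The share of all genes that was lower depends on the scaling, with 1737 lower and 4789 higher after shifting the arrays to a common median, against 2861 and 3887 as deposited, and under that shift 32 of the 44 genes were lower and 4 higher.

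**Figure D1:**
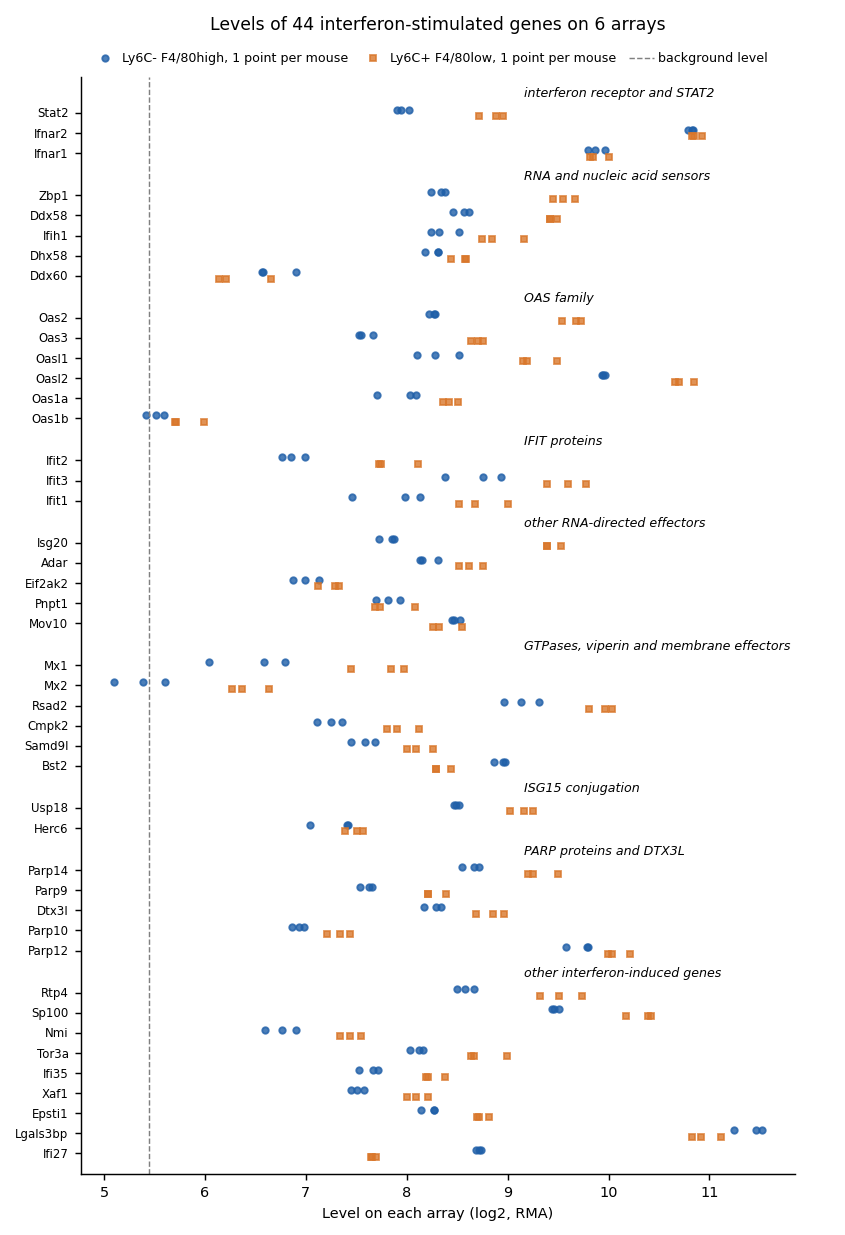
Level of each of the 44 measured genes on each array (log2, horizontal axis), grouped by role, with circles for the 3 Ly6C- F4/80high arrays and squares for the 3 Ly6C+ F4/80low arrays; the dashed line is the background level. The circles lie wholly left of the squares for 34 genes and wholly right of them for Bst2, Lgals3bp and Ifi27.

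The median over the 44 genes was -0.65 in the pair of mouse 1, -0.63 in that of mouse 2 and -0.57 in that of mouse 3. In 39 of the 44 genes the 3 pairs had the same sign. The exceptions were Ifnar1, Ifnar2, Pnpt1, Mov10 and Herc6, none of them called. Among the 34 genes called lower, the fall was largest in mouse 1 for 15, in mouse 2 for 12 and in mouse 3 for 7.

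**Figure D2:**
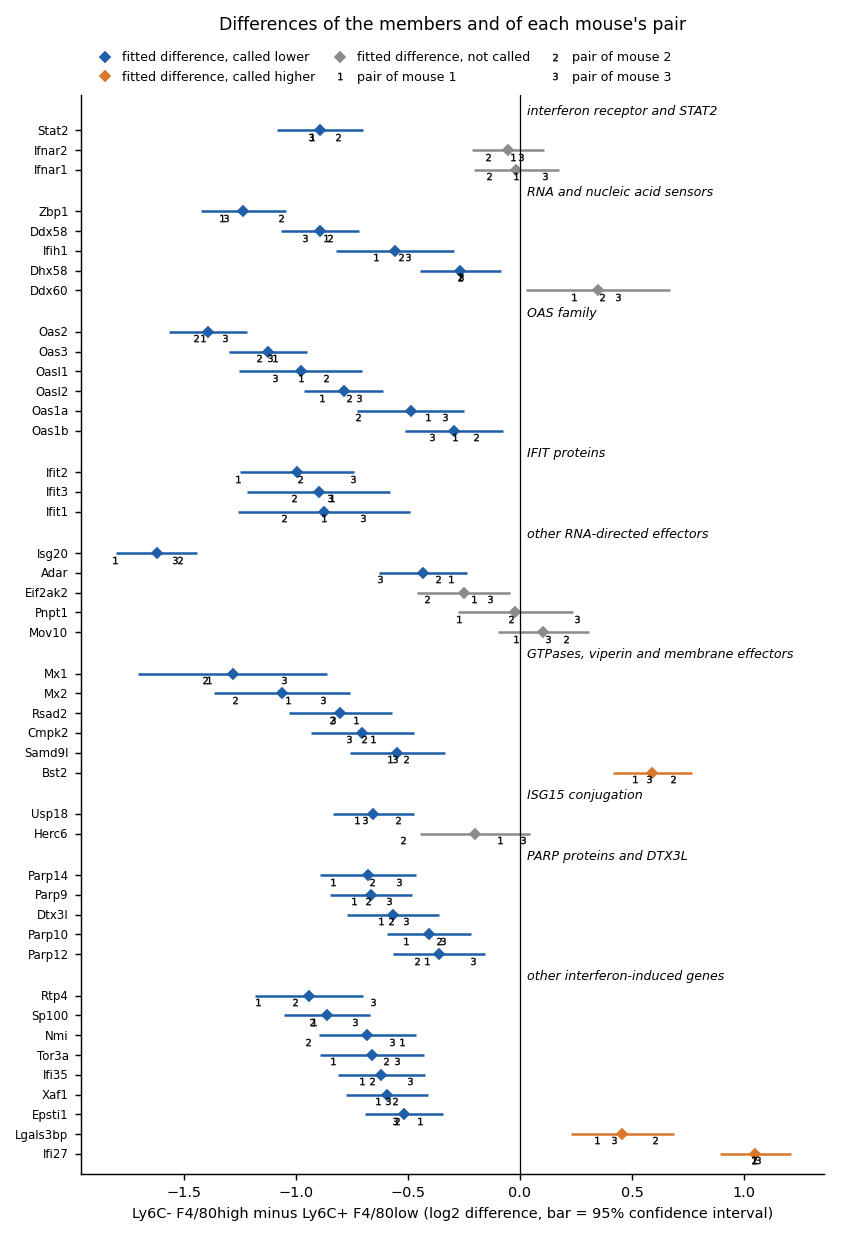
Fitted log2 difference of each gene, Ly6C- F4/80high minus Ly6C+ F4/80low, with its 95% confidence interval as a bar and the difference within each mouse's pair as the digits 1, 2 and 3; colour gives the call. The bars of the 34 genes called lower lie left of 0 and those of Bst2, Lgals3bp and Ifi27 right of it. Among the 7 not called, the unadjusted bars of Eif2ak2 and Ddx60 also miss 0.

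As a description, the promoters of members were searched for the letters of 2 short motifs. The ISRE core was taken as GAAANNGAAA on either strand, and the core of the gamma-activated site GAS as TTCNNNGAA, which reads the same on both strands. The RefSeq promoter windows (GRCm38.p6) run from 250 bases before to 50 after each gene start, and 34 of the 47 members have at least 1. An ISRE core stood in the window of 12 of these 34 genes, or 35.3%, against 3.99% of the 27025 genes with a window, and a GAS core in 9, or 26.5%, against 9.55%. A gene with several windows was counted once if any held the motif. Stretches of 60 bases that hold the ISRE cores before the start are shown for 8 measured members, read 5′ to 3′ along the gene with the letters of the core in capitals, because both members that were lower and members that were not carry them.
Ifit1 (chr19:34640769-34640828, plus strand): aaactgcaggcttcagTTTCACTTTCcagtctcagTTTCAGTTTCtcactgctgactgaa
Ifit3 (chr19:34583365-34583424, plus strand): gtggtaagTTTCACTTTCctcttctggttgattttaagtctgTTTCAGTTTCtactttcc
Oas1a (chr5:120907526-120907585, minus strand): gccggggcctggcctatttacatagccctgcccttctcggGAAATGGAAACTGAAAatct
Oas3 (chr5:120777700-120777759, minus strand): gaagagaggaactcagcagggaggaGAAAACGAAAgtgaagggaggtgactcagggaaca
Rsad2 (chr12:26456538-26456597, minus strand): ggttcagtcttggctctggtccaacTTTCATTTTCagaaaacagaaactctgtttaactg
Stat2 (chr10:128270251-128270310, plus strand): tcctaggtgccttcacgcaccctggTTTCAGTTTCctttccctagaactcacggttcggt
Bst2 (chr8:71537565-71537624, minus strand): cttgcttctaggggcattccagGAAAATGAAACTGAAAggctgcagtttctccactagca
Ddx60 (chr8:61928026-61928085, plus strand): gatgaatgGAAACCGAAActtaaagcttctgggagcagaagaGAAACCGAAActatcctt

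In Bst2 and Oas1a 2 cores overlap each other, and the first core of Bst2 also overlaps a GAS core. Of the members called lower 8 of 22 with a window held an ISRE core, of those called higher 1 of 2 and of those not called 2 of 7. The motif was thus present in genes of either direction. Among all genes with a window it stood in 6.48% of those called lower and in 3.11% of those called higher. A match in letters is a description and not a binding site, and a window without it says only that these letters are not in it.

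**Figure D3:**
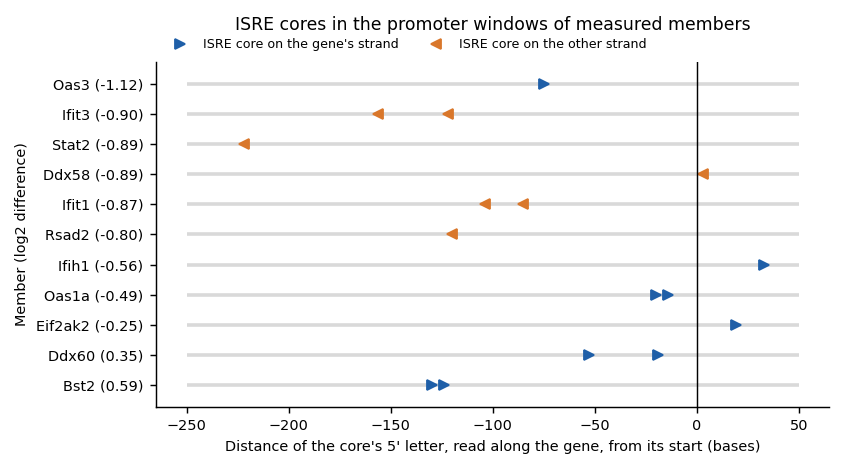
Position of each ISRE core in the promoter windows of the 11 measured members that hold one, from 250 bases before to 50 bases after the gene start (grey lines), with arrows for the strand and the gene's log2 difference beside its name. Ifit1, Ifit3, Oas1a, Ddx60 and Bst2 hold 2 cores each, and the cores of Ddx58, Ifih1 and Eif2ak2 lie after the start.

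The receptor genes did not differ detectably, whereas Stat2, which carries the signal on, was lower. Ifnar1 stood at 9.79, 9.86 and 9.96 in the Ly6C- F4/80high cells of mice 1, 2 and 3, against 9.81, 10.00 and 9.85 in the Ly6C+ F4/80low cells. Its arrays interleave, and the difference was -0.02 with a 95% confidence interval of -0.20 to 0.17 (limma adjusted p = 0.898). Ifnar2, the chain that holds STAT2, stood at 10.82, 10.79 and 10.84 against 10.85, 10.93 and 10.83, a difference of -0.05 with an interval of -0.22 to 0.11. A common median moves the difference of every gene by 0.08, which by itself puts both receptor genes above 0 (0.06 for Ifnar1 and 0.02 for Ifnar2). Stat2 reached 8.02, 7.90 and 7.95 in the Ly6C- F4/80high cells, against 8.95, 8.71 and 8.88 in the Ly6C+ F4/80low cells. The groups are well apart, and the gene was 1.85-fold lower (-0.89, SE 0.09, limma adjusted p = 4.05e-05).

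Among the genes that sense foreign or misplaced nucleic acid, 4 of 5 were lower. Zbp1, which binds nucleic acids in the left-handed Z form and can start cell death, stood at 8.34, 8.38 and 8.24 in Ly6C- F4/80high cells and at 9.67, 9.45 and 9.54 in Ly6C+ F4/80low cells. It was 2.35-fold lower, by -1.23 (SE 0.09, limma adjusted p = 4.91e-06). Ddx58, the gene of RIG-I, a sensor of RNA with triphosphate ends, had 8.62, 8.57 and 8.46 against 9.48, 9.42 and 9.42, a difference of -0.89 (SE 0.08). Ifih1, the gene of MDA5, which detects long double-stranded RNA, differed by -0.56 (SE 0.12, limma adjusted p = 0.00511), with 8.24 to 8.52 in Ly6C- F4/80high cells against 8.74 to 9.16. The third receptor of this family behaved less firmly. Dhx58, the gene of LGP2, which lacks the signalling domain and tunes the other two, differed by -0.27 (SE 0.08, limma adjusted p = 0.0289), and the pairs of the 3 mice gave -0.27, -0.27 and -0.26. Its call was lost under 9 of 19 alternatives, at adjusted p between 0.00776 and 0.118 over all 19. Leaving out mouse 1, 2 or 3 lost the call with fewer arrays, while the difference stayed at -0.27, -0.26 and -0.27. Ddx60, a helicase-like gene linked to RIG-I signalling, went the other way. It stood at 6.90, 6.57 and 6.57 in Ly6C- F4/80high cells and at 6.66, 6.20 and 6.13 in Ly6C+ F4/80low cells, higher by 0.35 in the fit (SE 0.14) and not called (limma adjusted p = 0.0870). Each pair was positive, at 0.24, 0.36 and 0.44. With the mouse as a replicate block Ddx60 was called (adjusted p = 0.0164), as it was with a common median (0.42, adjusted p = 0.0450). The same held when the Ly6C+ F4/80low array of mouse 1 was left out (0.51, adjusted p = 0.0102) or both arrays of that mouse (0.40, adjusted p = 0.0195), and over the 19 alternatives the adjusted p ran between 0.0102 and 0.270. In both subsets the array of mouse 1 was the highest for this gene.

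Active oligoadenylate synthetases respond to double-stranded RNA by making a messenger that activates the nuclease RNase L. All 6 measured genes of the family, OAS-like genes included, were lower, with a median of -0.88. Oas2 stood at 8.27, 8.28 and 8.22 in the Ly6C- F4/80high cells, against 9.68, 9.73 and 9.54 in the Ly6C+ F4/80low cells. The 3 pairs were alike, at -1.41, -1.44 and -1.32, and the gene was 2.62-fold lower (-1.39, SE 0.08, limma adjusted p = 1.50e-06). Oas3, next to it on the chromosome, had 7.67, 7.54 and 7.52 against 8.76, 8.71 and 8.64, a difference of -1.12 (SE 0.08). The 2 OAS-like genes, also neighbours, were lower as well. Oasl1, whose product holds back translation of Irf7 RNA in mice, differed by -0.98 (SE 0.12), and Oasl2, the brightest of the family at 9.94 to 9.97 against 10.66 to 10.85, by -0.79 (SE 0.08). Oas1a differed by -0.49 (SE 0.11, limma adjusted p = 0.00611). Oas1b, which in most laboratory strains carries a premature stop, lay near the background level, at 5.41, 5.52 and 5.60 in the Ly6C- F4/80high cells and 5.71, 5.71 and 5.99 in the Ly6C+ F4/80low cells. Only 2 of the 3 Ly6C- F4/80high arrays were above background there. Its difference of -0.29 (SE 0.10, limma adjusted p = 0.0412) lost its call under 11 of 18 alternatives, at adjusted p between 0.0271 and 0.151, among them the 3 other scalings and leaving out any of the 3 mice, where fewer arrays gave -0.30, -0.34 and -0.24. The Oas1 genes are alike in sequence, and the probes of Oas1a and Oas1b may read other members.

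Of the IFIT proteins, IFIT1 binds RNA whose cap lacks the host's methyl marks and keeps it from translation. The 3 measured genes of the family were lower to a similar degree. Ifit1 stood at 8.128, 7.461 and 7.981 in Ly6C- F4/80high cells and at 9.001, 8.514 and 8.680 in Ly6C+ F4/80low cells. In both subsets the array of mouse 2 was the lowest, and the difference was -0.87 (SE 0.17, limma adjusted p = 0.00329). Ifit3, which steadies IFIT1 on RNA in human cells, had 8.94, 8.38 and 8.75 against 9.77, 9.39 and 9.60, with mouse 2 again lowest in both subsets and a difference of -0.90 (SE 0.14). Ifit2 differed by -0.99 (SE 0.11, limma adjusted p = 0.000112), with 6.76 to 6.99 in Ly6C- F4/80high cells and 7.73 to 8.11 in Ly6C+ F4/80low cells. Ifit2 and Ifit3 are neighbours on the chromosome. Genes of this family are alike, so a probe may read more than 1 of them.

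Of the other genes whose products act on RNA, Isg20 showed the largest fall of all 44 and 3 of 5 were not called. Isg20 encodes an exonuclease that degrades RNA. It stood at 7.72, 7.88 and 7.85 in the Ly6C- F4/80high cells, against 9.53, 9.39 and 9.39 in the Ly6C+ F4/80low cells, 3.08-fold lower (-1.62, SE 0.08, limma adjusted p = 7.59e-07). Adar, which edits adenosine to inosine in double-stranded RNA, differed by -0.43 (SE 0.09, limma adjusted p = 0.00419). The fall of Adar was largest in mouse 3, at -0.62 against -0.31 and -0.37 in mice 1 and 2, and without mouse 3 it was -0.34 and not called (adjusted p = 0.0643). Eif2ak2, the gene of the kinase PKR that stops translation when it binds double-stranded RNA, differed by -0.25 (SE 0.09, limma adjusted p = 0.0612). It passed the threshold under 7 of 19 alternatives, at adjusted p between 0.0279 and 0.270, among them quantile normalization (-0.31, adjusted p = 0.0279) and leaving out mouse 1 in the Ly6C- F4/80high subset (-0.31, adjusted p = 0.0446) or mouse 3 in the Ly6C+ F4/80low subset (-0.31, adjusted p = 0.0441). Mov10, a helicase that restrains retroelements, stood at 8.53, 8.46 and 8.45 against 8.55, 8.26 and 8.32, a difference of 0.10 with an interval of -0.10 to 0.31. Pnpt1, a mitochondrial RNA-degrading enzyme, differed by -0.02 with an interval of -0.28 to 0.24, and its pairs ran from -0.27 in mouse 1 to 0.25 in mouse 3.

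The dynamin-like GTPases and the enzymes that act on nucleotides or membranes included some of the larger falls and the gene Bst2, which was higher. Mx1 encodes a GTPase that blocks influenza viruses in the nucleus, and in most laboratory strains, C57BL/6 among them, the gene is damaged. Its level was 6.58, 6.04 and 6.79 in Ly6C- F4/80high cells and 7.97, 7.45 and 7.85 in Ly6C+ F4/80low cells. The 2 groups do not overlap, yet the spread within the Ly6C- F4/80high arrays (SD 0.39) was the widest of the 44 genes, and the difference of -1.28 had an SE of 0.19 (limma adjusted p = 0.000558). Mx2 had 5.60, 5.09 and 5.39 against 6.63, 6.37 and 6.27, with only 1 of 3 Ly6C- F4/80high arrays above background. Its fitted difference of -1.06 (SE 0.14, limma adjusted p = 0.000231) thus rests on signals that are partly background, and it was -0.93 with those arrays set to the background level and -0.98 with a common median. Rsad2, the gene of viperin, which makes a chain-ending nucleotide, stood at 9.31, 8.97 and 9.13 against 10.04, 9.80 and 9.96, a difference of -0.80 (SE 0.10). Cmpk2, the adjacent gene, encodes a kinase that supplies nucleotides for the same step and differed by -0.70 (SE 0.10). Samd9l, a restriction factor of poxviruses, was lower by -0.55 (SE 0.10).

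Bst2 encodes tetherin, which holds budding virus at the cell surface and also marks plasmacytoid dendritic cells in mice. It stood at 8.96, 8.97 and 8.87 in Ly6C- F4/80high cells, against 8.44, 8.29 and 8.29 in Ly6C+ F4/80low cells, 1.51-fold higher (0.59, SE 0.08, limma adjusted p = 0.000314). All 3 pairs were positive, and the call held under each of the 19 alternatives. Its promoter carries the ISRE cores shown above.

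Isg15, a ubiquitin-like protein that is attached to other proteins after interferon, had no probe set of its own, and of the enzymes around it Usp18 was lower. Usp18 removes ISG15 and also damps signalling at IFNAR2. It stood at 8.52, 8.48 and 8.47 in Ly6C- F4/80high cells and at 9.25, 9.03 and 9.16 in Ly6C+ F4/80low cells, a difference of -0.65 (SE 0.08, limma adjusted p = 0.000189). Herc6, the main ISG15 ligase of mice, had 7.42, 7.04 and 7.40 against 7.51, 7.57 and 7.39. Its groups overlap, and the difference of -0.20 (SE 0.11) was not called (limma adjusted p = 0.184). Mouse 2 gave -0.52, and mice 1 and 3 gave -0.09 and 0.01.

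The genes of the interferon-induced ADP-ribosyltransferases and their partner DTX3L were lower in 5 of 5 cases, by smaller amounts. Parp14, Dtx3l and Parp9 are neighbours on the chromosome, and PARP9 and DTX3L work as a pair in DNA damage and antiviral responses. Their differences were alike, at -0.68 (SE 0.10) for Parp14, -0.57 (SE 0.09) for Dtx3l and -0.67 (SE 0.08) for Parp9. Parp14 reached 8.66, 8.55 and 8.72 in Ly6C- F4/80high cells and 9.50, 9.21 and 9.26 in Ly6C+ F4/80low cells. Parp10 differed by -0.41 (SE 0.08), and Parp12, which restricts RNA viruses, by -0.36 (SE 0.09, limma adjusted p = 0.0134). Parp12 was not called without mouse 1 (-0.33, adjusted p = 0.0635) or without mouse 2 (-0.31, adjusted p = 0.0601).

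The remaining genes are used as marks of the interferon response, and 7 of 9 were lower and 2 higher. Rtp4, a chaperone of membrane receptors, stood at 8.57, 8.50 and 8.67 in Ly6C- F4/80high cells, against 9.74, 9.50 and 9.33 in Ly6C+ F4/80low cells. Its pairs ran between -1.17 in mouse 1 and -0.66 in mouse 3, and the difference was -0.94 (SE 0.11, limma adjusted p = 0.000118). Sp100, a component of nuclear bodies that silence viral DNA, differed by -0.86 (SE 0.09). Nmi and Ifi35, whose products bind each other, differed by -0.68 (SE 0.10) and -0.62 (SE 0.09). Nmi had 6.91, 6.60 and 6.76 against 7.43, 7.54 and 7.34, with the largest fall in mouse 2. Tor3a, of the torsin ATPases, Xaf1, a promoter of apoptosis, and Epsti1, a gene of macrophage activation, differed by -0.66 (SE 0.10), -0.59 (SE 0.08) and -0.52 (SE 0.08).

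Ifi27, a small hydrophobic protein of mitochondria or the nuclear envelope, rose more than any other member. It stood at 8.69, 8.74 and 8.72 in Ly6C- F4/80high cells, against 7.64, 7.69 and 7.66 in Ly6C+ F4/80low cells. The arrays of each subset hardly differ among themselves, and the gene was 2.07-fold higher (1.05, SE 0.07, limma adjusted p = 4.10e-06). Lgals3bp, a secreted glycoprotein that binds galectins, was the brightest of the 44 genes, at 11.46, 11.52 and 11.25 against 11.12, 10.92 and 10.83. Its difference was 0.46 (SE 0.10, limma adjusted p = 0.00693), and it was not called without mouse 2 (0.38, adjusted p = 0.0591).

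**Figure D4:**
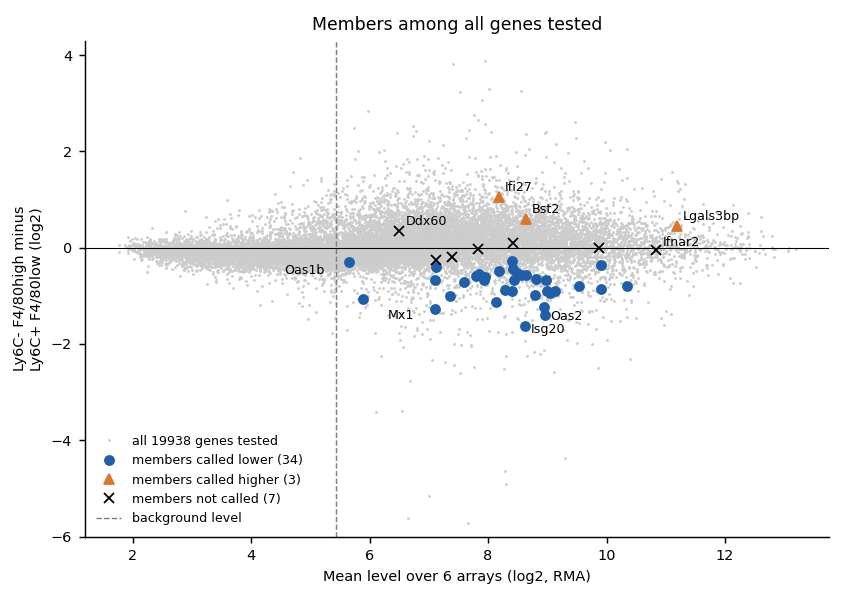
Log2 difference (vertical axis) against the mean level over the 6 arrays (horizontal axis, log2) for all 19938 genes in grey, with the 34 members called lower as circles, the 3 called higher as triangles and the 7 not called as crosses. Members spread over mean levels from 5.66 to 11.2, right of the background level (dashed), and their differences run from -1.62 to 1.05.

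The level of these genes also varied between arrays of the same subset. Among the Ly6C+ F4/80low arrays, that of mouse 1 was the highest for 33 of the 44 genes (75.0%), and for 37.8% of all genes. Among the Ly6C- F4/80high arrays, that of mouse 1 was the highest for 26 genes (59.1%) and for 28.4% of all genes, and that of mouse 2 was the lowest for 23 (52.3%) and for 23.3% of all genes. The low values of mouse 2 were clearest in Mx1, Ifit1, Ifit3, Mx2, Herc6 and Oas1a, named here after their values were seen. For the 34 genes called lower the arrays of the 2 subsets stayed apart. The median SD of the 44 genes within a subset was 0.09 in Ly6C- F4/80high and 0.12 in Ly6C+ F4/80low cells, close to 0.10 in each over all genes. When the Ly6C+ F4/80low array of mouse 1 was left out, the median difference of the 44 genes was -0.55, and 33 were lower. No source names a batch for these arrays, and the part of any batch was not tested.

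**Figure D5:**
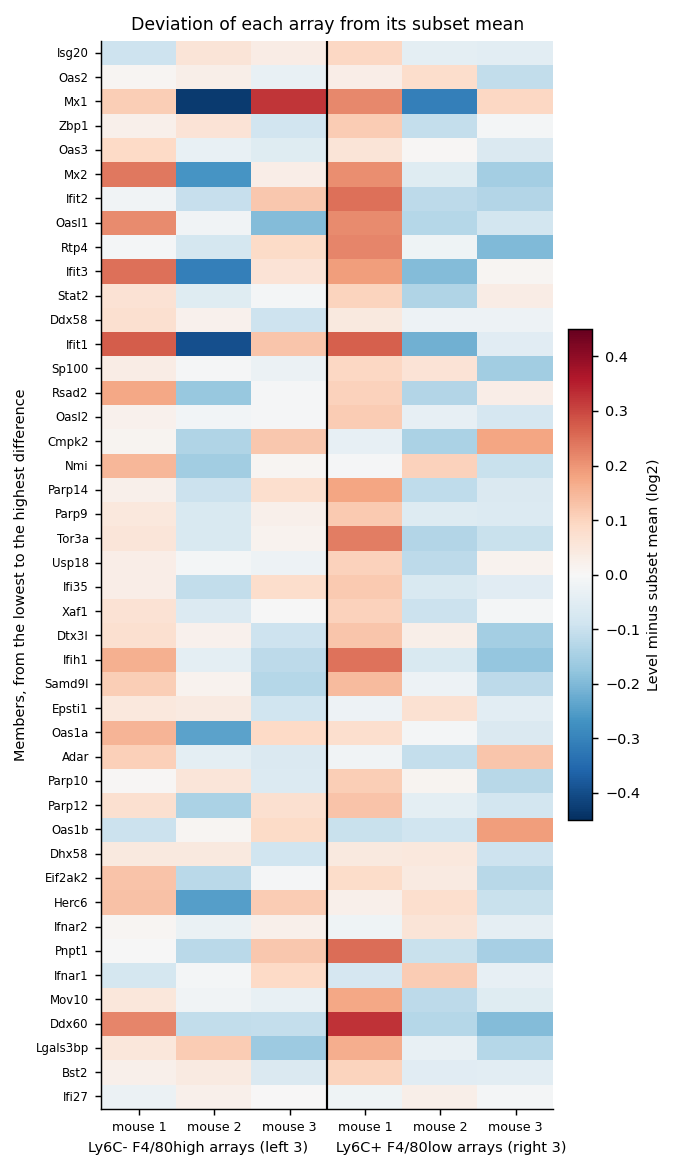
Level of each of the 44 genes on each array minus the mean of its subset (log2, blue below and red above), with the 3 Ly6C- F4/80high arrays on the left and the 3 Ly6C+ F4/80low arrays on the right, and genes ordered from the lowest to the highest difference. The Ly6C+ F4/80low array of mouse 1 is above its subset mean for most genes, and the Ly6C- F4/80high array of mouse 2 is below it for Mx1 (6.04) and Ifit1 (7.46).

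Of 57 listed genes that lie upstream of or beside the stimulated genes 49 were measured. Of these 22 were lower, 2 were higher and 25 were not called, and their median was -0.21. Irf9, the DNA-binding part of ISGF3, averaged 8.39 ± 0.23 in Ly6C- F4/80high cells and 9.17 ± 0.13 in Ly6C+ F4/80low cells (SD, n = 3 each), a difference of -0.78 (SE 0.12, limma adjusted p = 0.000682). The receptor's kinases did not differ detectably, with -0.12 (SE 0.08) for Jak1 and 0.01 (SE 0.10) for Tyk2, whose sign turned under quantile normalization (-0.08) and cyclic loess (-0.07). Of 11 measured genes listed as carrying or damping the signal of the receptor 6 were lower and 5 not called. The largest fall among those listed was in Cish, a feedback inhibitor of cytokine receptors, at -1.36 (SE 0.10), whose part at the interferon receptor was not tested.

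Of 15 measured genes that induce interferon 6 were lower, 2 higher and 7 not called. Tlr9, an endosomal sensor of DNA, averaged 8.89 ± 0.12 in Ly6C- F4/80high cells and 10.47 ± 0.08 in Ly6C+ F4/80low cells (SD, n = 3 each), a difference of -1.58 (SE 0.09). Irf7, which drives transcription of interferon alpha genes and is itself induced by interferon, differed by -1.29 (SE 0.08, limma adjusted p = 2.64e-06). Mavs, the mitochondrial adaptor through which RIG-I and MDA5 signal, rose by 0.74 (SE 0.08, limma adjusted p = 8.96e-05), whereas the RNA sensor genes that it serves fell. Tlr3, an endosomal sensor of double-stranded RNA, was higher by 0.60 (SE 0.07), with 3 of 3 Ly6C- F4/80high and 1 of 3 Ly6C+ F4/80low arrays above background.

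The genes of the interferons themselves gave little signal. Of 13 measured type I interferon genes 9 had both subset means under the background level. Ifnb1, the interferon beta gene, averaged 4.71 ± 0.25 in Ly6C- F4/80high cells and 4.91 ± 0.19 in Ly6C+ F4/80low cells (SD, n = 3 each), with 0 of 6 arrays above background, so no difference could be read. The 4 called lower were Ifna2, Ifna5, Ifna14 and Ifne, named after their values were seen. Ifna5 differed by -0.35 (SE 0.08) and Ifna14 by -0.52 (SE 0.09), with means of 5.68 to 7.05 on these probes, which may read several of the closely similar interferon alpha genes. Ifne and Ifna2 had means under the background level in both subsets. Of the 5 measured genes of the interferon gamma branch 3 were lower, namely Ifngr1, Jak2 and Irf1, also named after their values were seen, and the interferon gamma gene Ifng was not called (-0.15, SE 0.09). Of 3 further enzymes of the ISG15 pathway Uba7, which activates ISG15, was lower, at -0.31 (SE 0.08). Of 3 measured genes around RNase L and SAMHD1, Samhd1, which breaks down nucleotides, and Trex1, which degrades DNA, were lower at -0.64 (SE 0.09) and -0.81 (SE 0.08). These 3 were also named after their values were seen.

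Markers of the cell types were read on the same arrays. All 8 macrophage markers were above background on every array of both subsets, and their mean level was 10.68 to 10.73 in Ly6C- F4/80high and 10.48 to 10.51 in Ly6C+ F4/80low cells. Their calls were mixed, with 3 higher, 3 lower and 2 not called, and a median difference of -0.02. Mertk, at 1.57 (SE 0.08), Adgre1 and Cd68 were higher, and Fcgr1, Cd14 and Itgam were lower. The sorting antigens followed the gates, with Adgre1, which encodes the antigen of the F4/80high gate, higher at 0.73 (SE 0.07). The 2 probe sets that Ly6c1 shares with Ly6c2 differed by -3.39 (SE 0.14) and -3.18 (SE 0.15). Ptprc, the gene of CD45, differed by -0.64 (SE 0.07). Ly6C was itself a sorting antigen, and 6 of 7 measured markers of Ly6C-high monocytes were lower. Their mean level was 7.35 to 7.49 in Ly6C- F4/80high cells against 9.19 to 9.26 in Ly6C+ F4/80low cells. The falls were uneven, from -4.65 (SE 0.13) for Plac8 and -4.37 (SE 0.08) for Vcan to -0.37 (SE 0.08) for F13a1. S100a8 went the other way, at 0.30 (SE 0.13), with each pair positive, and was not called. Plasmacytoid dendritic cells make much interferon, and 4 of their 7 measured markers were lower and 1 higher, with a mean level of 5.95 to 5.99 against 6.17 to 6.40. Their defining genes Siglech and Ccr9 were above background on 3 of 3 Ly6C+ F4/80low arrays and on 0 of 3 Ly6C- F4/80high arrays. Ly6d, also called lower, was above it on 2 of 3 and 0 of 3. Cd209d was under it on all 6, so its lower call compares background signals. The plasmacytoid markers Cox6a2 and Tcf4 were above background on all 6 arrays. For both, every Ly6C- F4/80high array was above every Ly6C+ F4/80low array, at 0.52 (SE 0.08, called) and 0.14 (SE 0.07, not called). Conventional dendritic cell markers were lower in 4 of 8 cases, at 5.10 to 5.17 against 5.57 to 5.60. Xcr1, Clec9a, Dpp4 and Itgae were under background throughout, so the lower call of Dpp4 compares background signals. Cd209a, at -1.19 (SE 0.08), and Ccr7, at -0.38 (SE 0.10), were lower and above background on all 6 arrays. Flt3, at -0.67 (SE 0.10), was above background on 3 of 3 Ly6C+ F4/80low and on 0 of 3 Ly6C- F4/80high arrays. Zbtb46 was not called. Of 8 neutrophil markers 7 were under background on all arrays, with a mean level of the list of 4.44 to 4.60 against 4.68 to 4.79. The 2 called lower, Ly6g and Cxcr2, were among these 7, so their calls compare background signals. T and NK cell markers stood at 4.15 to 4.28 against 4.41 to 4.50, with 2 of 7 lower and 5 under background on all arrays. Of the 2 lower, Gzmb was under background on all arrays and Cd3e, at -0.45 (SE 0.09), was above it on all. B cell markers stood at 5.36 to 5.50 against 5.25 to 5.28, with 2 of 7 higher and 3 under background on all arrays. The 2 higher were Cd22, at 1.38 (SE 0.10), and Cd79b, at 0.53 (SE 0.10), both above background on all 6 arrays. Muscle and endothelial markers stood at 6.02 to 6.13 against 6.38 to 6.42, with 3 of 8 lower and 7 of 8 above background on every array, the exception being the muscle gene Des. The 3 lower were the endothelial genes Cdh5, at -1.51 (SE 0.10), and Pecam1, at -0.82 (SE 0.08), and the satellite cell gene Pax7, at -0.35 (SE 0.08), and the muscle genes Myod1, Ckm and Acta1 were not called. The part of any of these cell types in the interferon genes was not tested.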

How the data were processed

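RNA of 6 sorted samples was measured on expression arrays, 1 per sample. The deposited values are log2 levels from RMA, a method that corrects background, equalises the arrays' distributions and condenses probes to probe sets. The authors ran it, per the submitters' processing notes; the sources used here do not give its version. The log2 scale was read from the values. Of 35556 probe sets 21789 had 1 gene symbol, 1621 several and 12146 none listed, giving 19938 genes, of which 999 had over 1 probe set. Differences were fitted over all genes with limma 3.58.1 (R 4.3.3; functions lmFit and eBayes, unfiltered) and adjusted by Benjamini-Hochberg over all of them, two-sided; every adjusted p is limma's. Background is 5.44, the 95th percentile of 1194 olfactory and vomeronasal receptor genes. Arrays give no read depth, and their number limits the precision.

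The members and lists were chosen with earlier results of these data known. Named genes are all members, the called pathway genes with the 3 largest differences in each direction, Irf9, Irf7, Jak1, Tyk2 and Ifnb1, up to 2 called genes per direction in 3 neighbouring families, and the sorting antigens. Both subsets came from the same animals, so the mouse numbers pair the arrays; deviations of paired arrays from the subset means correlated at 0.03, -0.08 and 0.09 across genes. A paired test is stated nowhere in the sources, and the mouse block was therefore 1 of 19 alternatives: other scalings, low-level filters, probe set rules, priors, array weights, and each array or mouse left out. Simulated data on 19938 genes had independent noise, no shared array or mouse effects, and 67 genes changed by 0.5, 67 by 1 and 66 by 2. There 86.6% of genes changed by 0.5 and 100.0% of those changed by 1 were recovered, with 13 false calls among 204. Many more genes, 6748, were called in the data, so these rates need not hold for them. Promoter sequences are from RefSeq (GRCm38.p6); no build is named for the values, so no other coordinates are given. A withheld item of the named genes is not reported here.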

Additional observations from a re-analysis of the deposited data

How the results depend on the processing

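Of the 34 genes called lower 30 kept call and direction under all 19 alternatives, and the exceptions were Oas1b, Dhx58, Parp12 and Adar, whose values stand in the report; of the 3 called higher 2 did, and Lgals3bp was the exception. The number of members called lower was 32 to 34 without 1 array, 31 without any 1 mouse and 32 to 35 otherwise, and that of members called higher was 3 to 4, 2 to 4 and 3 to 4. With the mouse as a replicate block 34 members were lower and 4 higher, the fourth being Ddx60, and the block changed no other member's call. The median member difference of -0.64 was -0.71 after quantile normalization, -0.72 after cyclic loess and -0.56 with a common median, -0.65 to -0.55 without 1 array and -0.66 to -0.57 without 1 mouse. Pathway genes called lower numbered 15 to 24 over the alternatives against 22, and those called higher 4 with a common median and 4 with a trended robust prior, against 2; 2 to 3 were higher without 1 array and 2 without 1 mouse. Genes not called changed sign: Pnpt1 was 0.056 with a common median, 0.016 with array weights and -0.16 to 0.11 without 1 array or mouse. Ifnar1 was 0.060 with a common median and -0.079 to 0.046 without 1 array or mouse, and Ifnar2 was 0.022 with a common median. Tyk2 was -0.079 after quantile normalization, -0.067 after cyclic loess, -0.0039 with array weights and -0.078 to 0.12 without 1 array or mouse. A common median shifts all genes alike, and the cause of the other sign changes was not tested. Over all genes, 6748 were called, against 4523 without mouse 1, 6123 without mouse 2 and 3998 without mouse 3. These fits had fewer samples than the full fit but as many as each other, so the count varied with the mouse left out. Where mouse 2 was dropped from the Ly6C- F4/80high subset alone, 6887 genes were called. The cause of this variation was not tested. Other scalings shifted the median of all genes by at most 0.08. Without the 50% of genes of lowest level, Mx2 and Oas1b were not tested. Low signals limit what can be read for Mx2, Oas1b and the interferon genes.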

Other observations

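Neighbouring families of interferon-related genes ran mostly the same way, given here as values with no test of a difference from the antiviral genes. Of 10 measured Gbp and Irg GTPases, which attack the vacuoles of intracellular microbes, 8 were lower and 2 were not called. Their median was -0.77, although 5 had both subset means under the background level. Among these, Gbp2b, Gbp4 and Gbp8 were called lower with no array above background, so their calls compare background signals. Gbp9 averaged 6.35 ± 0.09 in Ly6C- F4/80high cells and 7.54 ± 0.07 in Ly6C+ F4/80low cells (SD, n = 3 each), a difference of -1.20 (SE 0.08). Gbp5 was not above background on any Ly6C- F4/80high array and at least 1.38-fold lower there, with those arrays set to the background. Of 8 measured interferon regulatory factors 6 were lower, 1 higher and 1 not called. Irf1, Irf3, Irf5, Irf7 and Irf9 among them were already counted with the pathway genes above. Irf8, a factor of the monocyte lineage, was the higher one at 0.29 (SE 0.09, limma adjusted p = 0.0284), a call lost under 9 of 19 alternatives (adjusted p between 0.00984 and 0.184), among them leaving out mouse 1 (0.26) or mouse 3 (0.24) in the Ly6C- F4/80high subset, and mouse 2 (0.26) or mouse 3 (0.29) in the Ly6C+ F4/80low subset. Of 5 measured genes listed with the Ifi200 family, Ifi27l2a among them though it belongs to another family, 3 were lower. Ifi205 averaged 9.06 ± 0.20 in Ly6C- F4/80high cells and 10.97 ± 0.33 in Ly6C+ F4/80low cells, a difference of -1.91 (SE 0.16), and Ifi203 differed by -1.11 (SE 0.14). Members of these families are alike in sequence, so probes may read several. Ifi27l2a, which stands beside Ifi27 in name and family and is named here after its values were seen, differed by -1.03 (SE 0.12), while Ifi27 was higher by 1.05.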
